A study of Mus musculus with 310 samples.

Results

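Krt84 and Krt36 encode a type II and a type I keratin of the hard, hair-type class, and both are used as markers of the scales of mouse tail skin. They are 2 of the 14068 genes in the table of counts, and they are described here over 310 single cells, 5 plates and 2 groups, together with the genes found beside them in the same cells. Both were selected on their measured read counts in these cells, plate by plate and group by group, so their own levels and fold changes are given as a description without a test. The cells were tail keratinocytes of mice with the alleles Lrig1-EGFP-ires-CreERT2 and Rosa26-fl/STOP/fl-tdTomato on a mixed CBA and C57BL/6 background. In both groups hydroxytamoxifen was put once on the tail, before any wound was made, and tdTomato-positive epidermal cells were sorted one to a well. Because Lrig1, which marks stem cells at the junctional zone of the follicle, drives Cre, the sort took cells that expressed Lrig1 when labelled and their descendants, and not the whole epidermis. Group 38w held 145 cells, RepI on plates C114 (53 cells) and C118 (17) and RepL on C119 (75). Group 38wUW held 165 cells, RepM on C128 (82) and RepN on C129 (83). Both labels give a time of 38 weeks without the event it counts from. UW stays unexplained in the labels, and which group had been wounded is not given here. The study asked with these cells whether the response of Lrig1 progeny to a wound lasts with age.

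Keratins are the filament proteins of epithelial cells, and each filament is built from type I and type II partners. Mouse tail epidermis is a mosaic of scales, which shed a hard cornified layer that keeps its nuclei, and of interscale epidermis around the hair follicles, which forms a granular layer like the rest of the skin. The Wnt and Eda pathways are known to act in laying out this pattern, and Krt2 and Krt10 are keratins of the suprabasal layers of interscale epidermis. Hard keratins of the same class are otherwise known from the hair shaft and from nail and tongue.

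Krt84 lies on the minus strand of chromosome 15 of GRCm38 (GENCODE M21), from 101525026 to 101532820, with 9 exons and a main transcript of 2570 bases. Krt36 lies on the minus strand of chromosome 11, from 100102007 to 100105626, with 7 exons and a main transcript of 1671 bases. Each sits in its keratin cluster among close relatives, but none of the 2496 windows of 75 bases in the Krt84 transcript, nor of the 1597 in Krt36, occurred in a transcript of another gene, so reads of the length used here could be told apart from those of other keratins. The 250 bases before each gene's start are shown because the genes, on different chromosomes, were found together in the same cells. They come from RefSeq (GRCm38.p6) and are written on the gene's own strand, Krt84 from chr15:101532821-101533070 and Krt36 from chr11:100105627-100105876. Capitals mark TATAA on the gene's own strand, and on either strand TTTATN or TTAATN followed by a pair of purines, a pattern described for Hox factors of hair keratin genes.
Krt84: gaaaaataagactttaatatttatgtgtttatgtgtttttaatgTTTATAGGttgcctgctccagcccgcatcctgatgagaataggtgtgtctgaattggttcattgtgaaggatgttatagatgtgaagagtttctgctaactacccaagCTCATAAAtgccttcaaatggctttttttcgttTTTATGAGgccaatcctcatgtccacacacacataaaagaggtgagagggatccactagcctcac
Krt36: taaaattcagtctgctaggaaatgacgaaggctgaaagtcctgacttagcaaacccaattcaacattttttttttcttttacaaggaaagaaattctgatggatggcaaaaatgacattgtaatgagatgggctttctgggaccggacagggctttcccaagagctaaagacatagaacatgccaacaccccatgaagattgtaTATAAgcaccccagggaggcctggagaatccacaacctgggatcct
The Krt84 window held the Hox-type pattern at 206 and 65 bases before the start on its own strand and once on the other strand, and the first of these overlapped a TATAA of the other strand. The Krt36 window held no such pattern and had TATAA 46 bases before its start. Over all 32851 promoters of the same length, the Hox-type pattern was found on either strand in 17.2% and TATAA on the own strand in 16.0%. CTTTGA, the core of the TCF/LEF motif, was in neither window on either strand and in 13.8% of all windows. These are matches of letters only.

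Cells had between 11711 and 721564 reads (median 61294) and between 1996 and 5840 genes. Totals per replicate were 9725117 reads for RepI, 5801053 for RepL, 5472070 for RepM and 12946742 for RepN. Plate C114 stood apart, with a median ribosomal share of 30.5% of reads in its cells without the keratins, against 3.42% to 6.09% on the other plates. Of the 310 names, 15 carry a suffix that the labels do not explain, 13 IDTILL and 2 MBULK, so whether those wells held 1 cell is not given. The study's methods also describe mini-bulk libraries of many cells, and neither MBULK library had a read of the pair. Without the 15 the difference between the groups in the share of carrying cells, described below, was 9.85 percentage points, and 36 genes were called between carrying and other cells. On C114, 11 wells appear in the names of 2 cells. These C114 pairs correlated at a median r of 0.536 over genes, against 0.479 for the 1367 other pairs of the plate, and 2 of the cells described below are such a pair (C114 E1, with and without the suffix IDTILL, r = 0.592).

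Krt84 or Krt36 was found in few cells, and in 10 of these cells at a high level. A read of either gene was present in 23 of 310 cells, both genes in 16, Krt84 alone in 4 and Krt36 alone in 3. Cells with at least 50 CPM (reads scaled to the same library total) of the pair together are called carrying cells below, and there were 18 of them. The cell just inside this limit had 60.03 CPM (C119 G6) and the one just outside 32.7 CPM (C119 A3). Of all reads of Krt84 in the table, 99.7% came from the 10 cells with over 1000 CPM, and of Krt36 99.8%.

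Those 10 cells ranged from 6608 to 225419 CPM of the pair, and all were in group 38w. On C114 the pair took 22.5% of the reads of cell A8, with 42600 CPM of Krt84 and 182819 CPM of Krt36. Cell A7 of that plate had 22190 CPM of Krt84 and 100630 CPM of Krt36, and the suffixed cells E1 and G6 had 23650 and 23840 CPM of Krt84 and 53515 and 48806 CPM of Krt36. The lowest of the 10, the unsuffixed cell E1, had 2265 CPM of Krt84 and 4344 CPM of Krt36. C114 thus gave 5 of the 10 cells, over a wide range. On C119, cell F3 had 30011 CPM of Krt84 and 101706 CPM of Krt36, and cell H6 had 14961 and 39575 CPM. Cells F4 and G2 of the same plate had 11020 and 5129 CPM of Krt84 and 16256 and 10695 CPM of Krt36. The only such cell of C118, B10, had 5034 CPM of Krt84 and 20581 CPM of Krt36. Each of the 3 plates of 38w therefore held at least 1 cell with the pair at high level.

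The next cell below them, C118 B4, had 526 CPM of the pair, so that no cell lay between 526 and 6608 CPM. The 8 carrying cells of this lower range had 7 to 50 reads of the pair, 6 of them in 38w and 2 on C128. Of the C128 cells, B6 had 4 reads of Krt84 and 21 of Krt36, and G7 had none and 12. The 5 cells under the limit had 1 to 3 reads. None of the 83 cells of C129 had a read of either gene, which allows a share of up to 3.61% of cells.

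**Figure D1:**
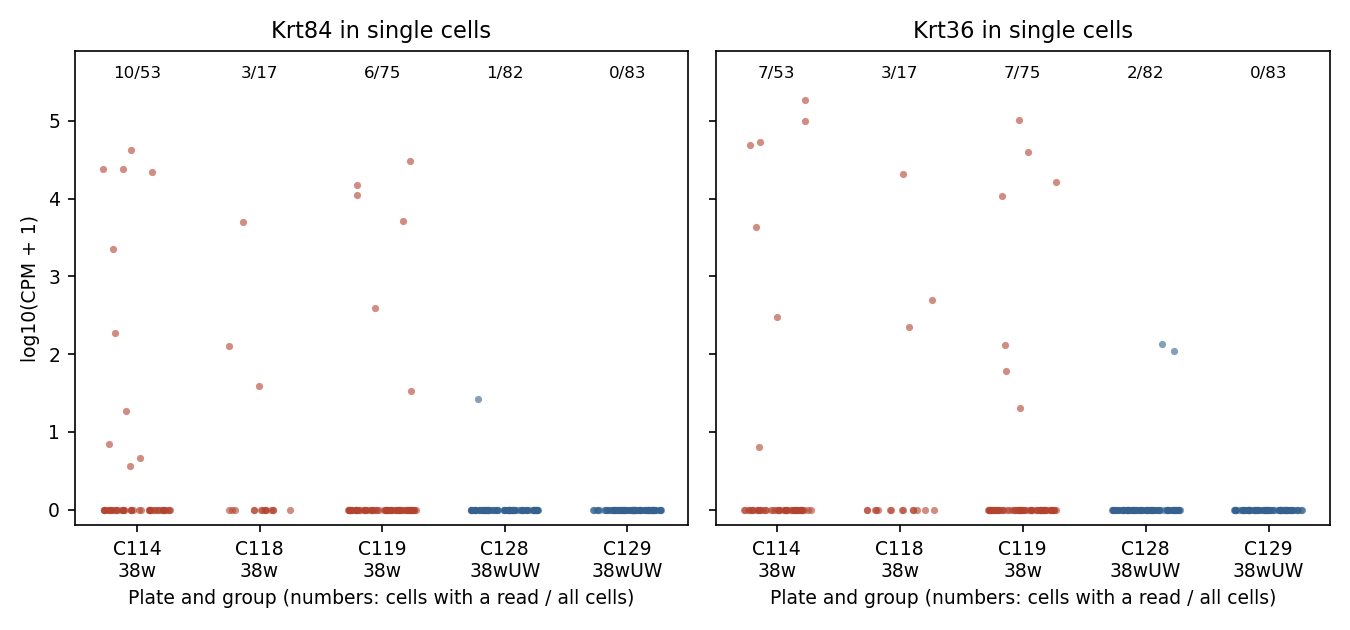
Level of Krt84 (left) and Krt36 (right) in each of the 310 cells, as log10(CPM + 1), by plate, with 38w in red and 38wUW in blue; points at 0 had no read, and the numbers above give cells with a read over all cells. High cells are on C114, C118 and C119, C128 has 1 cell with Krt84 and 2 with Krt36 at low level, and C129 has none.

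By plate, carrying cells were 7 of 53 on C114 (13.2%; 95% Wilson interval 6.55 to 24.8), 3 of 17 on C118 (17.6%; 6.19 to 41.0), 6 of 75 on C119 (8.0%; 3.72 to 16.4), 2 of 82 on C128 (2.44%; 0.671 to 8.46) and 0 of 83 on C129. These intervals cover counting error only, since reads and cells of a plate are not independent. The share was 11.1% ± 4.44 in 38w and 1.22% ± 1.72 in 38wUW (SD, n = 2 replicates each), a difference of 9.92 percentage points. RepI (14.3%) and RepL (8.0%) both lay above RepM (2.44%) and RepN (0). The share of cells over 1000 CPM was 6.95% ± 2.29 in 38w and 0 in both 38wUW replicates. The 277 of 310 cells with at least 20000 reads were also thinned to that depth, which left out the high cell C114 G6. Of these thinned cells, 13.1% ± 2.32 of 38w and 1.56% ± 2.21 of 38wUW had a read of either gene. No test was made, and with 2 replicates against 2 an exact permutation test could not pass 0.05 in any case.

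The share was also higher in 38w within each of the batch tags that the labels give. Within Replicate1 carrying cells were 9.78% of the 92 cells of 38w and none of the 83 of 38wUW, and within Replicate2 they were 13.2% of 53 and 2.44% of 82. An alternative tag swaps the 38wUW plates, and the values then were 9.78% against 2.44%, and 13.2% against 0. No plate held cells of both groups, so group and plate cannot be told apart, within a batch tag either. RepL, RepM and RepN were each on 1 plate, so for them replicate and plate cannot be told apart, while RepI was on C114 and C118.

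Summed over all cells of a replicate, Krt84 was at 1710 CPM in RepI and 698 CPM in RepL, against 0.731 CPM in RepM and 0 in RepN. Krt36 was at 6958, 1802, 6.03 and 0 CPM in the same order. Both 38w replicates lay above both 38wUW replicates for both genes, as they did for 12.6% of the 11760 genes compared. Group means were 1204 ± 716 and 0.365 ± 0.517 CPM for Krt84 and 4380 ± 3646 and 3.02 ± 4.26 CPM for Krt36 (SD, n = 2). Single cells set these sums, since cell A8 alone gave 53.4% of the Krt84 reads and 56.3% of the Krt36 reads of RepI. In such sums fewer carrying cells and less RNA per cell cannot be told apart, but the cells themselves showed both fewer carriers and none above 158 CPM in 38wUW. Without the 10 high cells, Krt84 fell to 4.66 CPM in RepI and 2.96 in RepL, and Krt36 to 10.2 and 2.59 CPM.

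Within cells Krt84 and Krt36 went together closely. In the 10 high cells both genes were always present, with 1.48 to 4.53 reads of Krt36 for each read of Krt84 (median 2.45). Over all 310 cells the Pearson correlation of log2(CPM + 10), after the mean of each plate was taken off, was 0.967. It was 0.968 within C114, 0.974 within C118 and 0.980 within C119, and 0.588 in the 300 cells without the 10 high ones. Cells share their plate and library preparation, and most of them lie at 0 for both genes. In the lower range the genes parted more often, with C114 B9 at 1 read of Krt84 and 49 of Krt36, and C114 D10 at 21 and none.

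**Figure D2:**
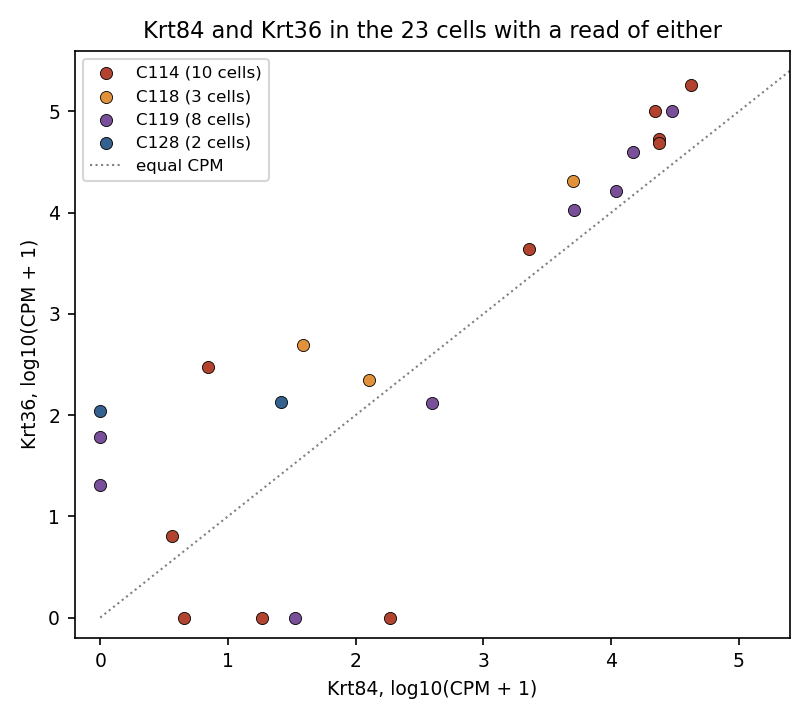
Krt36 against Krt84, both as log10(CPM + 1), in the 23 cells with a read of either gene, coloured by plate; the dotted line marks equal CPM. The 10 high cells lie together above the line, while below 1000 CPM several cells have reads of 1 gene only.

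On a scale per transcript length (RPKM), Krt36 was the highest of the 32 keratins in the table in 8 of the 10 high cells, and Krt84 the second in 6 of them. Krt36 ranged from 2599 to 109407 RPKM (median 26445) and Krt84 from 881 to 16576 RPKM (median 7228). The third keratin that all 10 cells carried was Krt24, a type I keratin of differentiating epithelial cells, at a median of 248 RPKM (32.3 to 1469). Krt10, the type I keratin of suprabasal epidermis, had a median of 821 RPKM and was present in 9 of 10. Another keratin stood above Krt36 or Krt84 in 4 cells. In C119 F4 Krt10 reached 12914 RPKM against 9729 for Krt36, and in the unsuffixed C114 E1 Krt14 was at 14895 RPKM and Krt36 at 2599. In C119 G2 Krt10 (3020 RPKM) lay between Krt36 (6401) and Krt84 (1996). In the suffixed G6, Krt16, a keratin of stressed epidermis, reached 13859 RPKM, between Krt36 and Krt84.

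Basal keratins were mostly low in these cells. Krt14 had a median of 175 RPKM in the high cells and of 986 RPKM in the 292 cells under the limit, and Krt5 medians of 5.53 and 168 RPKM. Krt1 was found in 2 of the 10 cells and Krt2 in 4. In the other cells of C114, C118 and C119 the shares were similar, at 27.1% for Krt1 and 41.9% for Krt2. Other hard keratins were at trace level, with Krt31 and Krt32 in 4 cells each at no more than 15.2 and 92.2 RPKM, Krt35 in 1 cell at 2.45 RPKM and Krt83 in none. In all, 12 of the 32 keratins had no read in any of the 10 cells.

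**Figure D3:**
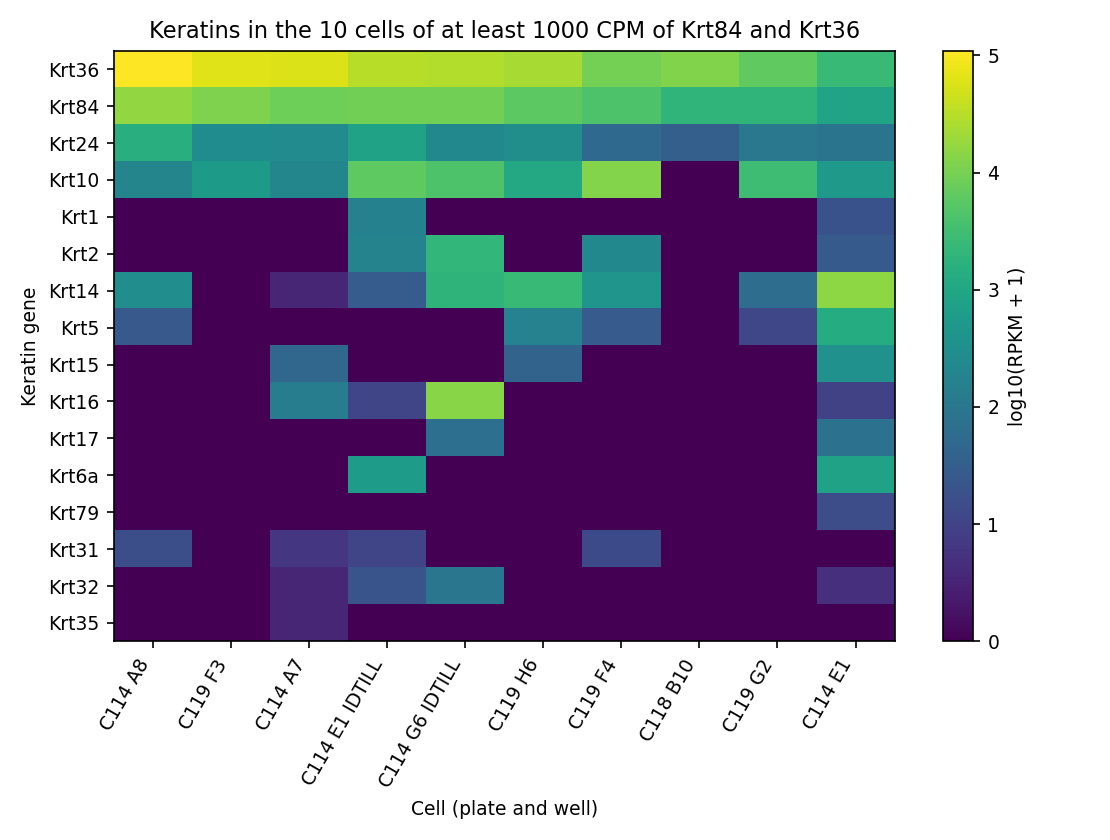
Level of 16 keratins (rows) in the 10 cells with at least 1000 CPM of Krt84 and Krt36 together (columns, from the highest to the lowest), as log10(RPKM + 1) on a colour scale. Krt36, Krt84 and Krt24 are filled in every column, and Krt14 is brightest in C114 E1. The hard keratins Krt31, Krt32 and Krt35 are at 0 in most columns and at no more than 92.2 RPKM in the others.

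By the marker lists, the 10 cells had higher levels of interfollicular differentiated genes and lower levels of basal genes at the median than other cells. The summed level of the interfollicular differentiated list (Krt1, Krt10, Krt77, Krtdap, Sbsn, Mt4, Calm4, Ptgs1) was 9587 to 120097 CPM in the high cells (median 27126), and 0 to 102337 CPM in the other cells of the same plates (median 2749). Krt77 alone of this list was at 0 in all 10. The basal list (Krt14, Krt5, Itga6, Itgb4, Col17a1, Thbs1) had medians of 429 and 6251 CPM. The ranges overlapped for both lists. Infundibular and duct markers had medians of 555 and 61.01 CPM, and among them Cst6, a protease inhibitor of cornifying cells, was found in 9 of the 10 with a median of 324 CPM. Of the hair shaft and matrix list 5 of 11 genes were in the table, summed to a median of 31.1 CPM in the high cells and 0 in the others. Its member Hoxc13, described below, alone had a median of 30.9 CPM in the high cells. Lef1, a Wnt effector and a defining gene of the hair matrix, had no read in any of the 10. It had a read in only 4 (3.10%) of the other cells of these plates, so its absence in 10 cells says little. Fibroblast markers summed to at most 4.12 CPM in the high cells, melanocyte markers to at most 91.6 CPM and immune markers to at most 61.1 CPM. Pecam1, the only endothelial marker in the table, was instead at 268 to 18319 CPM in the high cells (median 3967) and at 71.6 to 19568 CPM in the other cells of these plates (median 5258), with a read in every one of both. Loricrin and filaggrin (Lor, Flg), which mark the granular layer, had no read in the 10 cells, and a read in no more than 2 and 3 of the other cells of these plates. Whether 2 cells shared a well was not tested. C114 E1 without the suffix was the only high cell with Defb6 (1190 CPM), a defensin of the upper follicle, and with Krt79.

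The genes whose levels over cells were most like those of the pair were largely the same for both keratins. Likeness was the same plate-centred correlation, over 310 cells, for 9246 genes with a read in at least 31 cells, and 8 of 12 genes were in the top 10 of both. Selenbp1, a selenium-binding methanethiol oxidase, came first, with r = 0.683 to Krt84 and 0.674 to Krt36, and Krt24 second, with 0.590 and 0.594. Then followed Prxl2b (0.529 and 0.518), Gjb2, which encodes connexin 26 (0.471 and 0.480), Slurp2, a secreted Ly6-family peptide of keratinocytes (0.444 and 0.436), and Kazald1 (0.439 and 0.440). Gpr157, Agpat4, Ggct and the cornified envelope gene Sprr2a2 completed the list for Krt84, at 0.393 to 0.418. Krt36 had Mt4, the metallothionein of stratified epithelia (0.415), and Cux1 (0.403) in place of Gpr157 and Agpat4. The median over all genes was -0.009 for Krt84 and -0.008 for Krt36, and 1 gene in 100 exceeded 0.203 and 0.208. All of this is description over cells that share plates and depth.

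Most of this likeness rested on the 10 high cells. Without them Selenbp1 kept 0.281 to Krt84 and Krt24 0.146, and Prxl2b had -0.028. Within plates, Selenbp1 had 0.728 on C114, 0.816 on C118 and 0.720 on C119, and Krt24 0.717, 0.464 and 0.666.

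Selenbp1 was in all 10 high cells, from 473 CPM in C119 F3 to 8197 CPM in C114 G6 with the suffix (median 878), when the pair was left out of the total. It was found in 42 of the 292 cells under the limit, of which 1, at 1728 CPM, reached the lowest of the high cells. Krt24 was in all 10 as well, from 61.1 to 3504 CPM, but 21 of the 292 other cells were at or above its lowest value there. Hoxc13, a homeobox regulator of hard keratin genes, was named after its values were seen. It had a read in 7 of the 10 high cells, at up to 248 CPM (median 30.9), and in 10.1% of the other cells of the 3 plates, where its highest value was 311 CPM.

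Which genes differ between carrying cells and the other cells of the same replicate was tested on sums of counts with edgeR's quasi-likelihood test, with the pair left out of counts and totals and the replicate as a block. RepI (10 carrying and 60 other cells) and RepL (6 and 69) entered, both of 38w, while RepM with 2 carrying cells and RepN with none did not. Genes of differentiating epidermis were among those higher in carrying cells, and genes of the infundibulum and duct among those lower. Of 9520 genes, 41 passed an adjusted p of 0.05 (0.431%), 21 higher (0.221%) and 20 lower (0.21%), with 593 below 0.05 before adjustment. By DESeq2 49 passed (0.515%). The median log2 fold change of all genes was -0.42, and with DESeq2's size factors it was -0.18 and the calls split into 27 higher and 14 lower. Without the block 1 gene was called (Aox4), and with plates as units and block 8 of 6575 (Cst6, Defb6, Fabp5, Gjb2, Krt79, Krtdap, Mt4 and Selenbp1). The test has 1 residual degree of freedom, so its measure of spread is borrowed across genes, and in sums of this size 1 cell can decide a gene. Carrying cells had a median of 161621 reads on C114 (others 110227), 33575 on C118 (others 67940) and 51164 on C119 (others 43068), and the part of depth in the calls was tested only by thinning, which called 46 genes.

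Selenbp1 had 1530 CPM in carrying and 80.3 CPM in other cells of RepI, and 493 and 16.8 CPM in RepL. The difference on the log2 scale was 4.68 ± 0.71 (SE; edgeR adjusted p = 1.43e-07), and by plate the ratio pointed the same way on C114 (1793 against 97.5 CPM), C118 (275 against 1.30) and C119 (493 against 16.8). With plates as units and C114 left out the log2 fold change was 6.19 (edgeR adjusted p = 0.108). With all 3 plates and replicates as units but no block it was 4.53 (edgeR adjusted p = 0.578). Krt24 had 778 and 39.4 CPM in RepI and 217 and 16.4 CPM in RepL, a difference of 4.13 ± 0.81 on the log2 scale (SE; edgeR adjusted p = 0.000262). On C118 the sums went the other way (21.5 CPM in 3 carrying cells against 51.5), and with plates as units its edgeR adjusted p was 0.566. So the summed level of Selenbp1 was higher in carrying cells on all 3 plates and that of Krt24 on C114 and C119. On C118 Krt24 was at 61.1 CPM in the high cell, B10, and its correlation over cells with Krt84 was 0.464.

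Of the other called genes with the largest rise, reads often rested on few cells. Gjb2 had 59.8 CPM in carrying and 2.45 CPM in other cells of RepI, and 513 and 7.81 CPM in RepL, a log2 fold change of 5.44 (edgeR adjusted p = 0.000123), with reads in 11 of 16 carrying cells and 12.4% of the others, but 74.9% of the reads in carrying cells came from 1 cell. The sums were higher on all 3 plates. In 38wUW, 10 of the 163 cells under the limit had a read of Gjb2, the highest at 2390 CPM. The highest of the high cells had 1041 CPM of it. Slurp2 (log2 fold change 4.55) was in 10 carrying cells and Sprr2a2 (5.16) in 9, with 59.5% and 86.6% of their reads there from 1 cell. Aox4, an aldehyde oxidase, had 156 reads in 2 carrying cells and none in the other cells of RepI and RepL. That makes it at least 448-fold higher there against a floor of 3 reads over the group. In 38wUW, which did not enter the test, 9 cells had a read of Aox4. Cnfn, a cornified envelope gene (4.57), was also in 2 carrying cells, with 95.9% of its reads in 1. Alox12, a lipoxygenase (7.85), was in 5 carrying and 5 other cells, Serpinb13, a keratinocyte protease inhibitor (8.59), in 6 and 1, and Wfdc17 (3.97) in 8 and 11.

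The 5 called genes with the largest fall had no read in any carrying cell of RepI and RepL. Klk10 and Klk7, kallikrein proteases of the epidermis, had 6374 and 1976 reads in the other cells, at least 247-fold and 76.4-fold lower in carrying cells against the same floor. For Klk10, 96.6% of the reads came from 1 cell, and for Gulp1 (at least 40.2-fold) 89.1%. Teddm3 was at least 71.5-fold and Zfp788 at least 29.4-fold lower. They were found in 13 to 24 of the other cells, so most other cells were at 0 too.

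The lists used next, and the members themselves, were drawn up with results of these cells known, and the scale and interscale lists are those the study used, which credits another publication for its markers. They are not independent evidence of a direction here. Of the 6 scale genes beside the pair, 2 rose (Selenbp1 and Krt24) and none fell, where 0.221% of all genes tested rose and 0.21% fell. Fgfbp1, a binding protein that releases fibroblast growth factors, had 1039 CPM in carrying and 213 CPM in other cells of RepI but 184 and 335 CPM in RepL. S100a6, a calcium-binding protein, had 3482 and 1188 CPM in RepI and 67.4 and 94.6 CPM in RepL. Id2, an inhibitor of helix-loop-helix factors, had 148 and 36.4 CPM in RepI and 5.62 and 91.8 CPM in RepL. For all 3 the replicates thus went opposite ways. Sparc, a matrix protein, had 206 and 229 CPM in RepI and 63.7 and 121 CPM in RepL. The median log2 fold change of the 6 was 0.75, against -0.42 for all genes.

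The interscale genes did not form the reverse of this. Of 9 tested, 2 rose and none fell, with a median log2 fold change of 0.34. Hspb1, a small heat shock protein, had 4520 CPM in carrying and 512 CPM in other cells of RepI and 882 and 82.1 CPM in RepL, a log2 fold change of 3.40 (edgeR adjusted p = 1.25e-06), and 68.4% of its reads in carrying cells were from 1 cell. On C118 Hspb1 was at 140 CPM in carrying and 158 CPM in other cells, and with plates as units it was not called (edgeR adjusted p = 0.275). Calm4, the epidermal calmodulin-like gene, had 3903 and 1625 CPM in RepI and 1026 and 127 CPM in RepL, a log2 fold change of 2.26 (edgeR adjusted p = 0.0107). Both were in all 10 high cells. Krt10 had 3640 and 4911 CPM in RepI and 7786 and 1659 CPM in RepL, and Krt2 3134 and 4463 CPM in RepI and 2639 and 906 CPM in RepL. Krt10 and Krt2 thus pointed opposite ways in the replicates. Krt1, the type II partner of Krt10, had 81.3 and 257 CPM in RepI and 3.75 and 113 CPM in RepL (log2 fold change -2.89; edgeR adjusted p = 0.421). Stfa3 and Csta1, which encode cystatin-type inhibitors, had log2 fold changes of -5.14 and -3.002, Serpinb12 had -4.29 and Ly6g6c 0.34, and none of them passed.

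**Figure D4:**
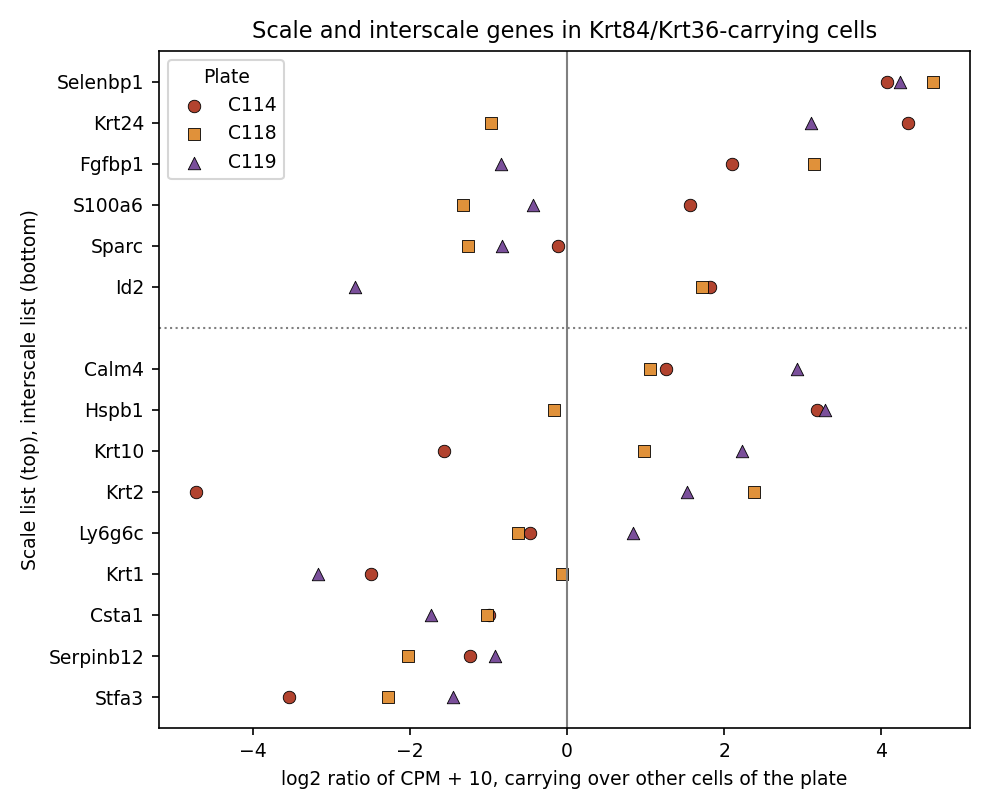
Log2 ratio of CPM + 10 between carrying cells and the other cells of the same plate for 6 scale genes (above the dotted line) and 9 interscale genes (below it), with a point for each of the plates C114, C118 and C119. Selenbp1 and Calm4 lie right of 0 on all 3 plates. The scale gene Sparc and the interscale genes Krt1, Csta1, Serpinb12 and Stfa3 lie left of 0 on all 3. The other genes lie on both sides.

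Among genes of late differentiation, 9 of 26 had enough counts to be tested, of which 3 rose, 1 fell, and the median log2 fold change was 2.56. Krtdap, a secreted peptide of suprabasal keratinocytes, had 26380 CPM in carrying and 5175 CPM in other cells of RepI and 2283 and 560 CPM in RepL (log2 fold change 2.30; edgeR adjusted p = 5.56e-05), and Sbsn, which encodes suprabasin, rose by 2.56 (edgeR adjusted p = 0.0189). Both were in all 10 high cells, but 74.6% of the Sbsn reads in carrying cells came from 1 cell. On C118 Sbsn was at 53.9 CPM in carrying and 125 CPM in other cells, and with plates as units it was not called (edgeR adjusted p = 0.714). The third that rose was Cnfn, described above. Sprr1a, a cornified envelope gene, had 14.0 and 3607 CPM in RepI and 24.4 and 45.9 CPM in RepL (log2 fold change -4.40; edgeR adjusted p = 0.000609).

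Of the other epithelial keratins 8 of 26 were tested and 2 fell, both of the infundibulum, with a list median of -3.24. Krt79 had 4.67 CPM in carrying and 4046 CPM in other cells of RepI and 0 and 696 CPM in RepL (log2 fold change -9.91; edgeR adjusted p = 8.64e-27). Krt17 had 1517 and 4200 CPM in RepI and 1.87 and 604 CPM in RepL (-3.85; edgeR adjusted p = 4.47e-05), and 98.4% of its reads in carrying cells were from C114 D10, which had Krt84 and no Krt36. Of the interfollicular differentiated markers 5 of 8 had a log2 fold change above 0, and 4 were called higher (Krtdap, Sbsn, Mt4 and Calm4). Of the infundibular and duct markers 0 of 7 were above 0, and 5 were called lower (Krt79, Krt17, Defb6, Cst6 and Klk10). Over all genes tested 0.221% were called higher and 0.21% lower. With plates as units and block, only Krtdap, Mt4, Krt79, Defb6 and Cst6 of these were still called. Cst6 was nonetheless in 11 of 16 carrying cells and in 48.1% of the others, where single cells reached 577548 CPM. The fall of Cst6 in the sums thus lay in its highest cells, and the share of cells with a read was not lower in carrying cells.

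Basal keratins did not pass the test. Krt14 had 22216 CPM in carrying and 19484 CPM in other cells of RepI and 2364 and 4868 CPM in RepL, and the median log2 fold change of Krt14, Krt5 and Krt15 was -0.56. Of the Krt14 reads in carrying cells, 73.1% came from C114 B9, which had 110275 CPM of Krt14 with 301 CPM of the pair. Of 14 other hard keratins 4 were in the table and 1, Krt32, had enough counts to be tested, with a log2 fold change of -2.41 and no call.

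None of the 11 tested genes of the Wnt and Eda pathways and of regulators passed, and 9 of the 20 had too few counts or were not in the table. Their median log2 fold change was 0.33. The most abundant were Tcf7l2, with 814 CPM in carrying and 530 CPM in other cells of RepI and 6830 and 7767 CPM in RepL, Klf4, with 257 and 159 CPM and 498 and 208 CPM, and Gata3, with 102 and 111 CPM and 215 and 136 CPM. Hoxc13 had 60.7 and 13.1 CPM in RepI and 43.1 and 15.04 CPM in RepL, a log2 fold change of 1.99 (edgeR adjusted p = 0.945). Lef1 had no read in the carrying cells of either replicate, and 3.38 and 0 CPM in the other cells of RepI and RepL.

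Whether genes of the lists differ between 38w and 38wUW as the pair does was read from the same test on sums of all cells per replicate, which passed 0 of 11760 genes (0%). DESeq2 called 83 (0.706%), and 949 had an unadjusted p under 0.05 by edgeR. Listed for RepI, RepL, RepM and then RepN, Selenbp1 was at 239, 60.5, 7.49 and 3.32 CPM and Krt24 at 120, 34.8, 7.68 and 5.48 CPM. Without the carrying cells, Selenbp1 in RepI and RepL was at 80.3 and 16.8 CPM and Krt24 at 39.4 and 16.4 CPM, still above both 38wUW replicates. On C118, a plate of RepI, these other cells had 1.30 CPM of Selenbp1, below both 38wUW replicates, and 51.5 CPM of Krt24, above both. Of the reads in other cells of RepI and RepL, 1 cell gave 43.6% for Selenbp1 and 1 cell 32.1% for Krt24. Fgfbp1 was at 302, 321, 120 and 125 CPM and Sparc at 225, 115, 36.7 and 19.2 CPM. These 4 of the 6 scale genes had both 38w replicates above both of 38wUW, where 12.6% of all genes did. S100a6 was at 1430, 91.9, 117 and 115 CPM, with RepI alone high, and Id2 at 48.3, 83.6, 85.5 and 121 CPM, with both 38w replicates below, as in 26.2% of genes.

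The median log2 fold change was 2.91 for the 6 scale genes and 1.40 for the 9 interscale genes, against 0.12 for all genes. Of the 9 interscale genes 2 had both 38w replicates above both 38wUW replicates, where 12.6% of all genes did. Krt2 was at 4278, 1063, 531 and 58.5 CPM and Csta1 at 14.2, 26.9, 14.1 and 0.309 CPM in RepI, RepL, RepM and RepN. The other 7 overlapped, such as Krt10 at 4729, 2218, 4479 and 2401 CPM. Hoxc13 overlapped between the groups, at 18.2, 17.6, 14.3 and 22.6 CPM, and had a read in 30 of the 163 cells of 38wUW without the pair (18.4%). Reads of Hoxc13 were thus found in both groups, and the pair at high level in 38w alone. Whether Hoxc13 acts on the pair in these cells was not tested.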

How the data were processed

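Single tdTomato-positive tail cells were prepared by a modified Smart-seq2 protocol with 25 cycles of PCR, without molecular identifiers, and sequenced as single 75-base reads. The authors quantified reads with Salmon 0.13.1 on the mouse transcriptome (GRCm38, Ensembl 101, as in the submitters' processing notes), and deposited unscaled estimated counts for every gene in every cell. Of these values 3.60% were not whole, but all values of Krt84 and Krt36 were whole. The study's methods drop cells under 1000 genes or over 50% mitochondrial reads. No doublet caller was run, since wells were meant to hold 1 cell.

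The members and all gene lists were chosen with earlier results of these data known. Each cell is 1 sample in the labels, so cells were never replicates. Groups came from the time label and replicates from the replicate tag (RepI and RepL against RepM and RepN). The study states biological replicates for each of its independent experiments, but the labels do not tie these to the replicate tags. How many mice stand behind a replicate tag is thus not given, and p-values cover the spread between these sums. CPM were taken over all genes for the members, and over all other genes elsewhere. Rounded estimated counts were summed per replicate, or per replicate and carrying or other cells, filtered with filterByExpr, scaled by TMM and compared by edgeR 4.0.16 under R 4.3.3 (glmQLFit, glmQLFTest, Benjamini-Hochberg over all genes tested). Carrying and other cells of a replicate come from the same plates, so the replicate was a block. DESeq2 1.42.0 was an alternative. Both fits were tested on simulated data. Likeness was Pearson's r of log2(CPM + 10) with plate means removed. RPKM used the main transcript in GENCODE M21. Lower limits for 0 counts use 3 reads or cells, and intervals are 95% Wilson. Other settings were the limit for a carrying cell (1 read of either or each gene, 200 or 1000 CPM), thinning to 20000 reads (reached by 277 of 310 cells), plates as units, and leaving out suffixed cells, plates or replicates.

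Named genes were the pair, the scale and interscale lists, the 10 genes most like each member, and from carrying against other cells the 10 called genes with the largest and the 5 with the smallest log2 fold change whose average log2 CPM was 4 or more with one direction in both replicates. Of the other lists, 2 to 4 abundant members were named. The table has no column of other samples and no comparisons by the authors. Promoters came from RefSeq.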

Additional observations from a re-analysis of the deposited data

How the results depend on the processing

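The share of carrying cells was higher in 38w under all 11 other settings. The difference of 9.92 points became 13.4 with at least 1 read of either gene, and lay between 6.78 and 13.1 when each replicate was left out in turn; the other settings gave 6.95 (1000 CPM, chosen after seeing the data) to 11.6 (without C114, likewise). The log2 fold change of Krt84, 12.2, ran from 10.6 to 13.0 and that of Krt36, 10.8, from 8.82 to 11.7, the lowest with RepI from C118 only; without RepM no fold can be fitted because RepN is at 0, and the pooled 38w level was then at least 5748-fold (Krt84) and 21715-fold (Krt36) that of RepN against a floor of 3 reads.

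Of the comparison of carrying with other cells, the count of 41 genes became 1 without the replicate block, 8 with plates as units and block, 8 with at least 1 read of either gene, 20 with at least 1 read of each, 19 at 1000 CPM and 9 with plates as units without C114 (the last 2 chosen after seeing the data). The other settings gave 36 to 49, and 27 of the 46 called in thinned cells were among the 41. Selenbp1 was called in all settings but those without the block and without C114. Leaving out RepM or RepN changes nothing (41), as neither entered, and leaving out RepI or RepL leaves 1 pair and no residual degree of freedom, so it was not run.

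Between 38w and 38wUW the count of 0 became 83 with DESeq2, 1 without a filter on low counts, 1 with plates as units and the batch tag as replicate block and 4 with the alternative tag. Leaving out each replicate gave 0 to 1215 (169 without RepI, 1215 without RepL), with the lone sample assumed to vary like the other group. The cause was not tested. The likeness of Selenbp1 to Krt84, 0.683, was 0.281 without the 10 high cells. Depth limits the low range, where 7 reads already made a carrying cell.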

Other observations

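The 2 carrying cells of 38wUW, both on C128, shared some genes with the 10 high cells of 38w and lacked others. B6 had 21 reads of Krt36 and 4 of Krt84 beside 4122 CPM of Krt10, 964 CPM of Krt2 and 25.2 CPM of Krt24. Its Krt10 and Krt2 were within the range of the high cells, which begins at 0 for both genes. Its Mt4 (454 CPM) and Krtdap (700 CPM) were below the lowest high cell and its Calm4 (731 CPM) within their range, and it was the only carrying cell with Lor (113 CPM) and Flg (321 CPM). G7 had 12 reads of Krt36 beside 270 CPM of Hoxc13 and 315 CPM of Msx2, a homeobox gene of the hair matrix, with 396 CPM of Mt4 and 45.0 CPM of Selenbp1 and no read of Krt14, Krtdap or Calm4. B6 had no read of Selenbp1, which all 10 high cells had, nor of Hoxc13, and G7 had none of Krt24. Neither had Gjb2 or Prxl2b.

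The lower carrying cells of 38w were mixed. On C118, B4 and B9 had 4664 and 19304 CPM of Krt10, and C119 B6 had 26885 CPM of Krt10 and 31857 CPM of Krt2 with 447 CPM of Selenbp1. C114 D10 had 14010 CPM of Krt17 and no Krtdap. With 7 to 50 reads of the pair and no molecular identifiers, whether these reads arose in the cell was not tested.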
